A study of Homo sapiens with 12 samples.

Results

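The 10 genes described here make and break down polyamines, the small positively charged molecules putrescine, spermidine and spermine. They were the count rows whose Ensembl identifiers map to ODC1, AMD1, SRM, SMS, SAT1, SMOX, PAOX, OAZ1, OAZ2 and AZIN1. The choice was by name but was made with earlier results of these data known. Counts of members set beside shares of all genes below are therefore descriptive. Each symbol matched 1 identifier, so the members were 10 of the 63677 identifiers counted in every sample. All 10 were among the 26156 genes with enough reads to enter the fit.

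Ornithine decarboxylase, encoded by ODC1, turns ornithine into putrescine and is the enzyme that usually limits the pathway. Spermidine synthase (SRM) and spermine synthase (SMS) then add aminopropyl groups, which come from S-adenosylmethionine through the decarboxylase AMD1. In the other direction SAT1 acetylates spermidine and spermine so that they can be exported or oxidized by PAOX, while SMOX oxidizes spermine directly. Antizymes (OAZ1 and OAZ2) bind ornithine decarboxylase and send it to the proteasome, and the antizyme inhibitor AZIN1, a relative of ornithine decarboxylase without its activity, takes antizyme away. Several of these enzymes are also controlled by translation and protein turnover, which counts of mRNA do not show. The prostate secretes polyamines, spermine above all, in large amounts, and ODC1 is a known androgen-responsive gene there.

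The cells were LNCaP, an established androgen-responsive prostate cancer line. They had been transfected with TALENs, nucleases designed to cut at the CTG start codon of Bag-1L, the longest protein made from BAG1, to give the Bag-1L KO line, or belonged to the TALEN control line. Each line was grown in full medium (FM: RPMI with fetal bovine serum), or kept for 72 h in RPMI with charcoal/dextran-treated serum and then given EtOH, the vehicle, or 10 nM dihydrotestosterone (DHT), an androgen, for 16 h. This made 6 groups of 2 samples, 12 in all: control FM, control EtOH, control DHT, KO FM, KO EtOH and KO DHT. The methods state that single clones were isolated by dilution and screened for the loss of Bag-1L, so a difference between KO and control cannot be told apart from a difference between clones. FM and EtOH also differ in much more than androgen, since charcoal takes out other hormones and lipids and only the starved cells had the change of serum. The labels give the medium of the starved cells as otherwise the same, whereas the methods name RPMI without phenol red for starvation.

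The sequences just upstream of ODC1, SMS and SAT1 are shown because these 3 genes had the largest responses below. Each line gives the 250 bases before the RefSeq transcript start in GRCh38.p14, read 5′ to 3′ on the strand of the gene. These lie at chr2:10448328-10448577 on the minus strand for ODC1, at chrX:21940459-21940708 on the plus strand for SMS and at chrX:23782923-23783172 on the plus strand for SAT1. Capitals mark matches, on either strand, to the GC box (GGGCGG) or the CCAAT box (CCAAT).
ODC1: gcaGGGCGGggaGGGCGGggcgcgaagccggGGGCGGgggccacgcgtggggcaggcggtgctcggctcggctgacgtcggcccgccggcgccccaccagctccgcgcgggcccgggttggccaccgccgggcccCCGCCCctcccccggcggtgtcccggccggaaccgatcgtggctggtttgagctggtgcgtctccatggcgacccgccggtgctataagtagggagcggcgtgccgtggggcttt
SMS: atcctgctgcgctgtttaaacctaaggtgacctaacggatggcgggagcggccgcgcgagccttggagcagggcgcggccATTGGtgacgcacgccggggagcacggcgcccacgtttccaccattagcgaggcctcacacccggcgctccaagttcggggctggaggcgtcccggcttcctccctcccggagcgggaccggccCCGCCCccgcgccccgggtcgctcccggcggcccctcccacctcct
SAT1: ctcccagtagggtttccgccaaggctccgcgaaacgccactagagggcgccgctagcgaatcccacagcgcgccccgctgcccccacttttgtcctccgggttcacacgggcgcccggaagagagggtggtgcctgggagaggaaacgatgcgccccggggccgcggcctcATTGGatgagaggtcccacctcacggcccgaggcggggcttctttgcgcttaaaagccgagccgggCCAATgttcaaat

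The ODC1 window held 4 GC boxes, the SMS window 1 GC box and 1 CCAAT box, and the SAT1 window 2 CCAAT boxes. Both motifs are common: GGGCGG or its reverse complement was found in 42.6% of 35116 RefSeq windows of this length and CCAAT in 32% of them. The hexamer AGAACA, an arm of the palindromic androgen response element, was in 12.4% of all windows and in 0 of the 7 members with a window (ODC1, AMD1, SRM, SMS, SAT1, OAZ1 and OAZ2). The palindrome itself, AGAACA and TGTTCT with 3 bases between, was in 1 window of all (0.00285%), which was not a member's, and every such palindrome also counts as a match of the hexamer. TATAAA was in 10.7% of windows and in 0 of the 7. The E-box CACGTG, which MYC and related proteins bind, was in 6.34% of all windows and, among the 7, in that of SRM only. A match describes the letters and is not a bound site, and 0 matches say only that these letters are not in this window. SMOX, PAOX and AZIN1 had no window.

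Gene counts summed to between 20826843 and 30354666 per sample. The labels call the samples replicates without naming separate cultures, so the p-values below measure the spread between these samples, which may be technical. The replicates of control EtOH and of control DHT agreed least: the median over genes of their absolute log2 difference was 0.238 and 0.172, against 0.0765 to 0.127 in the other 4 groups. The luminal prostate markers KLK3, KLK2, HOXB13, FOLH1, KRT8 and KRT18 stayed at or above 3303 normalized counts in every sample. Of the markers of other cells, KRT5, TP63, COL1A2, DCN, PTPRC, CD3E and CD68 never exceeded 9 normalized counts and KRT14 never exceeded 30.7, whereas COL1A1 lay between 370 and 1013 and VWF between 127 and 241. BAG1 was measured at 2117 and 1968 normalized counts in control FM, 1702 and 2703 in control EtOH and 2199 and 2631 in control DHT. In KO it was 1452 and 1576 in FM, 1191 and 1103 in EtOH and 1076 and 1114 in DHT, below every control sample of the same condition. These counts cover the whole BAG1 mRNA, from which the shorter proteins are also made, and do not check the loss of Bag-1L.

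Per kb of exon, with all annotated exons of a gene joined, ODC1 was by far the most abundant of the 10. Scaled per kb of exon, its mean over the 12 samples was 31650 normalized counts per kb, followed by SMS with 4824, OAZ1 with 4465, AMD1 with 3048 and SRM with 2780. SAT1 (1231), AZIN1 (905) and OAZ2 (532) came next, and the oxidases SMOX (151) and PAOX (55.2) were the scarcest. This order depends on the scaling. PAOX was divided by all its exon bases, yet 61.0% of them lie under another gene on the same strand, where reads cannot be given to a single gene. Its value per kb may therefore be too low, and its place below SMOX is uncertain. Unscaled, the mean normalized count of AMD1 (31063) and that of OAZ1 (15343) exceeded that of SMS (10275). In KO EtOH the unscaled mean of AMD1, 29441, was also above that of ODC1, 22367. In CPM, counts scaled to a common sample total, ODC1 ranged from 920 in a KO EtOH sample to 11690 in a control DHT sample. From the group with the lowest mean to the group with the highest, normalized counts spanned 13.1-fold for ODC1, 7.69-fold for SMS and 6.16-fold for SAT1. The other 7 genes spanned 1.26-fold (OAZ2) to 2.35-fold (PAOX).

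**Figure D1:**
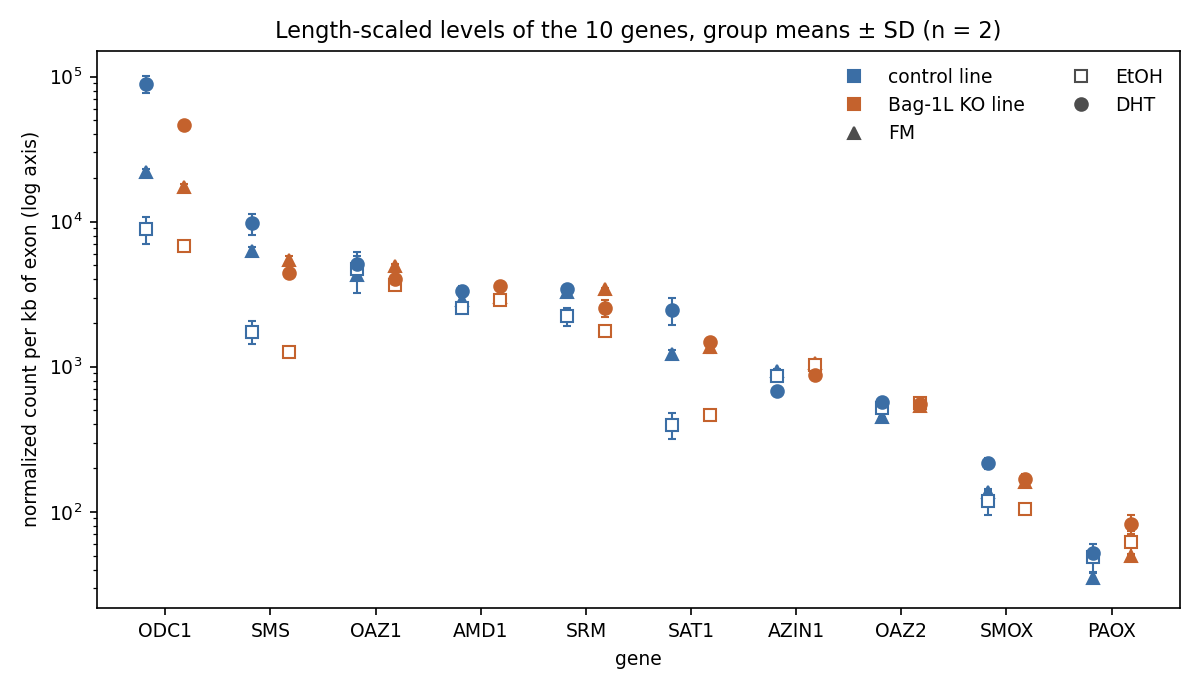
Normalized counts per kb of exon (log axis) for the 10 genes, ordered by their mean, with 1 symbol per group (mean ± SD, n = 2; triangles FM, open squares EtOH, circles DHT; blue control, orange Bag-1L KO). ODC1, with a mean of 31650, is highest in each of the 6 groups and PAOX, with 55.2, lowest. The PAOX value may be too low because another gene overlaps its exons. The symbols of ODC1, SMS and SAT1 are spread widest.

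To ask which of these genes respond to androgen when it is added alone after starvation, DHT was compared with EtOH in the control line. In control cells 5 of the 10 genes rose with DHT and 0 fell, at an adjusted p of at most 0.05 and a fold change of at least 1.5 (DESeq2, Benjamini-Hochberg over all genes). Over all genes tested, 6.04% rose and 5.37% fell. The 5 genes span both arms of the pathway: ODC1, SRM and SMS synthesize polyamines, and SAT1 and SMOX break them down. The median log2 change of the 10 was 0.50, beside -0.02 over all genes tested.

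ODC1 (ENSG00000115758, chromosome 2, 10580094 to 10588453, minus strand, GRCh37) showed the largest response. Its normalized counts were 25033 and 34003 in control EtOH and 266546 and 321554 in control DHT. Both DHT samples lay far above both EtOH samples. The change was 9.96-fold, or 3.32 on the log2 scale (standard error 0.14, adjusted p = 7e-119).

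SMS (ENSG00000102172, chromosome X, 21958827 to 22012955, plus strand) had 3247 and 4206 normalized counts in control EtOH and 18311 and 23201 in control DHT. The groups were again well apart, and the rise was 5.57-fold, a log2 change of 2.48 (standard error 0.14, adjusted p = 6.51e-63). Of the 50-base words in SMS transcripts, 22.1% also occur in other annotated transcripts, mainly of ENSG00000213080, so reads from those stretches may have been lost from its counts as ambiguous in position. The other aminopropyl transferase, SRM (ENSG00000116649, chromosome 1, 11114641 to 11120077, minus strand), had 3789 and 4632 normalized counts in control EtOH and 6559 and 6373 in control DHT. Its rise of 0.62 on the log2 scale (standard error 0.13, adjusted p = 2.26e-05) was only just above the fold change minimum. Without replicate 1 of control EtOH it was 0.48 and did not pass. AMD1 (ENSG00000123505, chromosome 6, 111195973 to 111220082, plus strand) was 25613 and 26300 in control EtOH and 31758 and 36053 in control DHT. Its log2 difference of 0.39 (standard error 0.10, adjusted p = 0.000967) stayed under the fold change minimum, although the groups did not overlap.

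Among the breakdown genes, SAT1 (ENSG00000130066, chromosome X, 23801290 to 23804327, plus strand) moved most. It was at 843 and 1128 normalized counts in control EtOH and at 5161 and 6976 in control DHT. The groups were widely separated, with a rise of 6.16-fold or 2.62 on the log2 scale (standard error 0.16, adjusted p = 5.02e-56). SMOX (ENSG00000088826, chromosome 20, 4101627 to 4168394, plus strand) had 301 and 405 normalized counts in control EtOH and 679 and 601 in control DHT, a rise of 0.86 on the log2 scale (standard error 0.16, adjusted p = 1.68e-06). PAOX (ENSG00000148832, chromosome 10, 135192765 to 135205198, plus strand) had 93.3 and 127 normalized counts in control EtOH and 118 and 117 in control DHT. These overlap, and the log2 difference of 0.09 (95% interval -0.39 to 0.57) did not pass. PAOX counts are low and uncertain, since 61.0% of its exon bases lie under the overlapping gene ENSG00000254536 on the same strand, where reads cannot be given to a single gene.

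**Figure D2:**
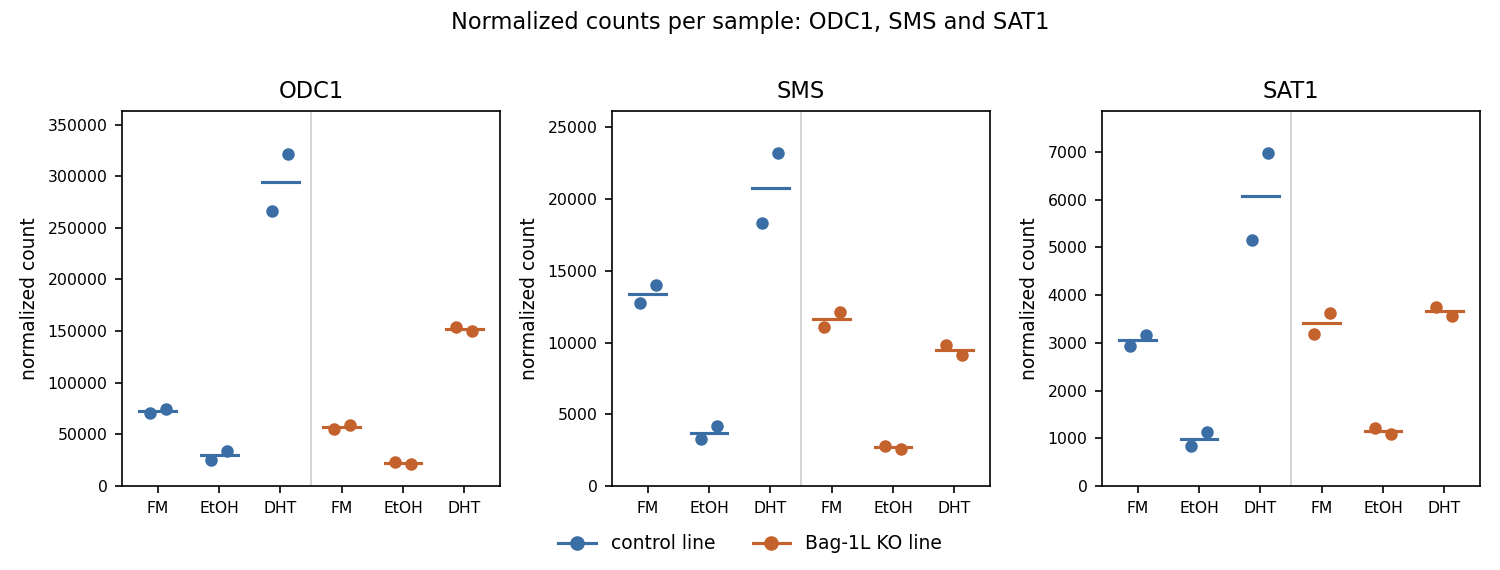
Normalized counts (linear axes from 0) of ODC1, SMS and SAT1 in each of the 12 samples, with points for samples and bars for the means of the 2 samples of a group (blue control, orange Bag-1L KO). In control DHT the points lie above those of every other group, with ODC1 at 266546 and 321554, and in KO DHT they lie between EtOH and control DHT.

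Of the 3 regulators of ornithine decarboxylase, 0 passed. The antizyme genes OAZ1 (ENSG00000104904, chromosome 19, 2269508 to 2273489, plus strand) and OAZ2 (ENSG00000180304, chromosome 15, 64979772 to 64995480, minus strand) had log2 differences of 0.11 and 0.14 with DHT in control, with 95% intervals of -0.23 to 0.45 and -0.08 to 0.36, and did not pass. OAZ1 was 12609 and 19781 normalized counts in control EtOH and 15793 and 19183 in control DHT, and the spread between the EtOH samples exceeded the difference between the groups. OAZ2 was 3610 and 4337 in control EtOH and 4227 and 4544 in control DHT. AZIN1 (ENSG00000155096) was the only member whose fitted value was below 0 in this comparison. Its normalized counts were 5478 and 5042 in control EtOH and 4152 and 4172 in control DHT, without overlap, and its log2 difference of -0.34 (standard error 0.10, adjusted p = 0.00429) stayed under the fold change minimum.

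**Figure D3:**
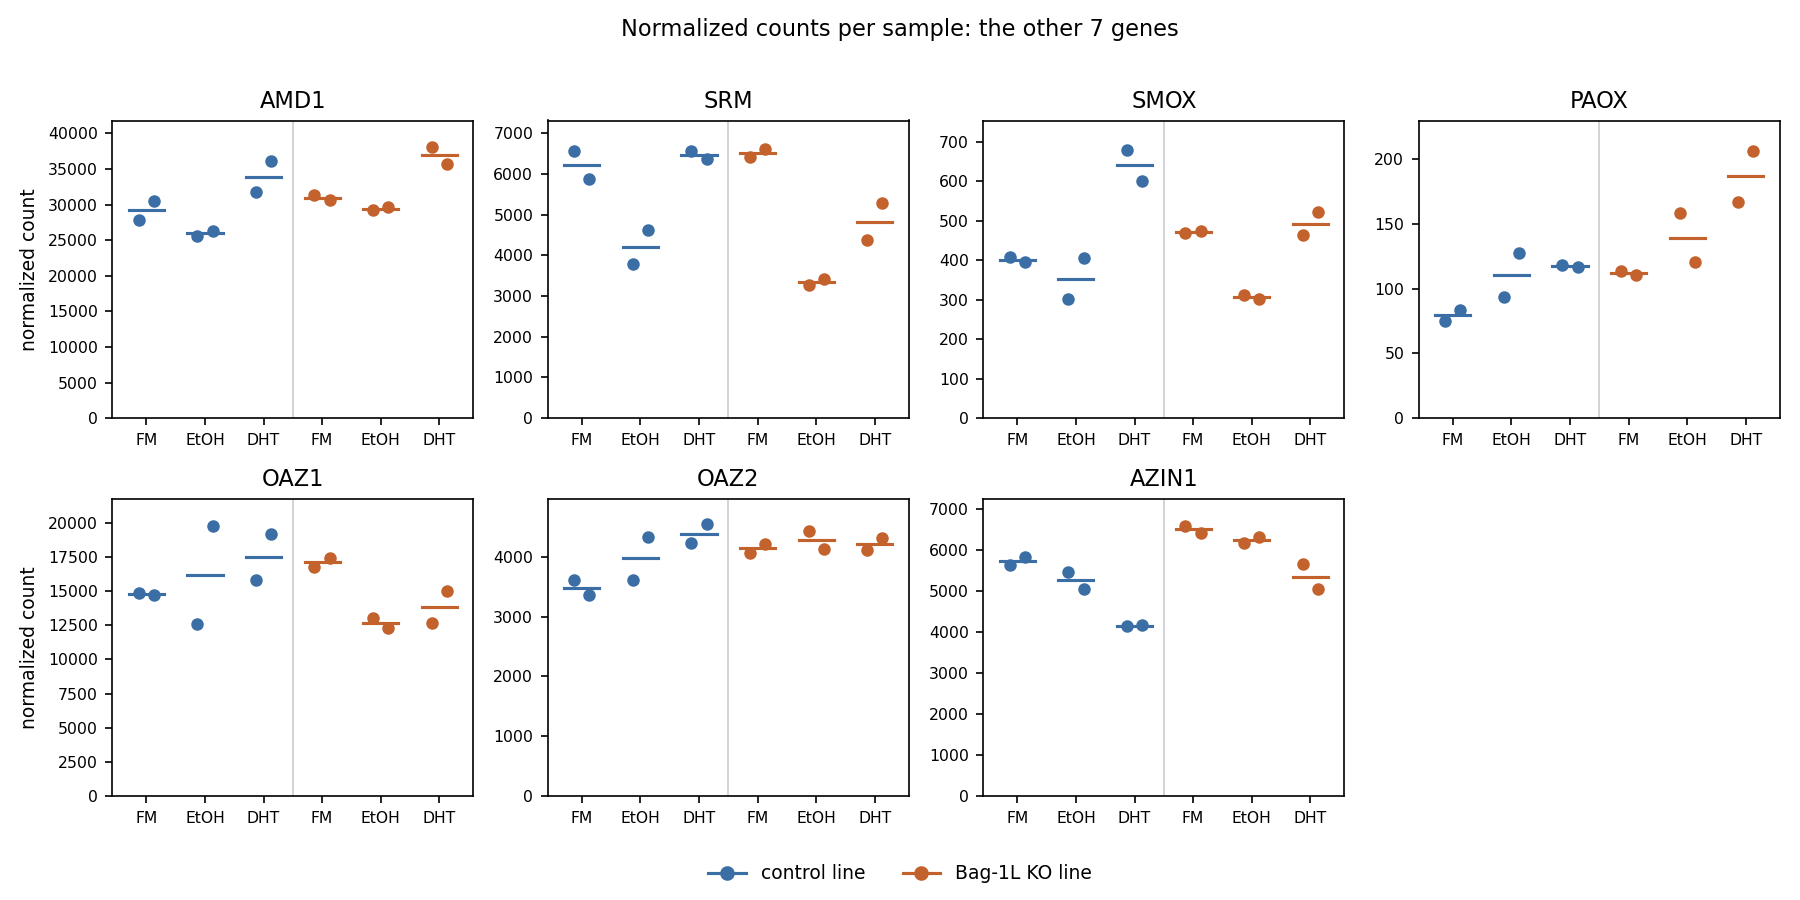
Normalized counts (linear axes from 0) of AMD1, SRM, SMOX, PAOX, OAZ1, OAZ2 and AZIN1 in each of the 12 samples, with points for samples and bars for group means (blue control, orange Bag-1L KO). SRM and SMOX have their lowest group means in EtOH in both lines, AZIN1 is lowest in control DHT at 4152 and 4172, and the points of OAZ2 all lie between 3355 and 4544.

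The same comparison in the Bag-1L KO line gave 4 genes that rose and 0 that fell, beside 4.43% and 3.24% of all genes tested. These were ODC1, SMS, SAT1 and SMOX, and the median log2 change of the 10 was 0.48, against -0.01 over all genes tested. ODC1 had 23132 and 21602 normalized counts in KO EtOH and 153830.3 and 150490 in KO DHT, close pairs that were far from each other. The rise was 6.80-fold, or 2.77 on the log2 scale (standard error 0.14, adjusted p = 1.53e-82). SMS rose from 2794 and 2601 normalized counts in KO EtOH to 9818 and 9153 in KO DHT, by 1.81 on the log2 scale (standard error 0.15, adjusted p = 2.08e-33). SAT1 was at 1223 and 1092 in KO EtOH and at 3749 and 3569 in KO DHT, a rise of 1.66 (standard error 0.16, adjusted p = 1.63e-22). For all 3 genes the rise in KO exceeded the spread of the replicates.

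The remaining members changed less in KO than ODC1, SMS and SAT1 did. SMOX was 313 and 302 normalized counts in KO EtOH and 463 and 522 in KO DHT, a log2 rise of 0.68 (standard error 0.16, adjusted p = 0.000566) that did not pass without replicate 2 of KO DHT (0.59, adjusted p = 0.0504). SRM, with 3269 and 3422 in KO EtOH and 4372 and 5288 in KO DHT, had a log2 difference of 0.53 (adjusted p = 0.00065), under the fold change minimum. Without replicate 1 of KO DHT that value was 0.66 and passed, so SRM stood near the limit in both lines. AMD1 (0.33, adjusted p = 0.0102) was also under the minimum. PAOX (0.42), OAZ1 (0.13), OAZ2 (-0.02) and AZIN1 (-0.22) had adjusted p from 0.119 to 0.956.

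**Figure D4:**
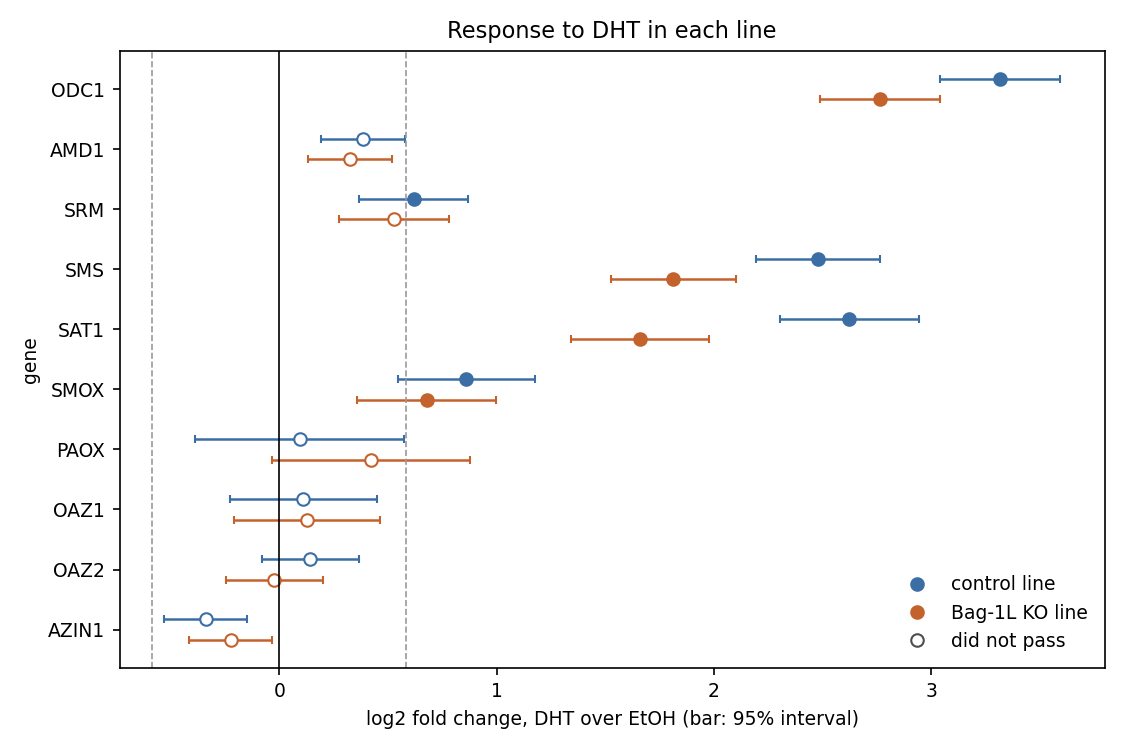
Log2 fold change of DHT over EtOH for the 10 genes in control (blue) and Bag-1L KO (orange), with bars for the 95% interval of the fit, filled symbols for genes that passed, and dashed lines at the 1.5-fold minimum. ODC1 (3.32 and 2.77), SMS (2.48 and 1.81) and SAT1 (2.62 and 1.66) lie far to the right, and the KO value is the smaller of each pair.

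Whether the KO and control lines differ in these responses was tested directly as the difference between their DHT responses. Such a difference cannot be told apart from one between clones. SAT1 was the 1 member of the 10 that passed, with a smaller response in KO, beside 0.185% of all genes tested in that direction. The log2 difference was -0.96 (standard error 0.23, 95% interval -1.41 to -0.51, adjusted p = 0.011), so the rise of 6.16-fold in control stood against 3.16-fold in KO. In the direction of a larger response in KO, 0 members passed, beside 0.223% of all genes. The median over the 10 members was -0.13, against 0.00 over all genes tested.

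The SAT1 call was not firm. It was lost with edgeR's quasi-likelihood test (-0.93, adjusted p = 0.142) and when only the 4 starved groups were fitted (-0.95, adjusted p = 0.167). It was also lost without replicate 2 of control DHT (-0.73, adjusted p = 0.238), replicate 1 or 2 of KO DHT (-0.99 and -0.93), or replicate 1 or 2 of KO EtOH (-0.88 and -1.04), with adjusted p of 0.102 to 0.385 for the KO samples. Replicate 2 of control DHT was the sample with the highest SAT1 count of the series, 6976.

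At an unadjusted p under 0.05, 3 members (ODC1, SMS and SAT1) had a smaller response in KO and 0 a larger one. By edgeR, 0 members passed both limits. The responses of SMS and ODC1 also had lower fitted values in KO and did not pass. For SMS the log2 difference was -0.66 (95% interval -1.07 to -0.26, unadjusted p = 0.00123, adjusted p = 0.169). For ODC1 it was -0.55 (95% interval -0.94 to -0.16, unadjusted p = 0.00587, adjusted p = 0.462). Without replicate 2 of control EtOH, the sample of that group with the higher count of each, both passed, at -0.86 for SMS (adjusted p = 0.000267) and -0.79 for ODC1 (adjusted p = 7.72e-05). SMS passed as well without replicate 1 of control DHT (-0.82, adjusted p = 0.0227). In all, SMS passed in 4 of 21 alternatives, a replicate block within each line among them (-0.67, adjusted p = 0.00987), and ODC1 in 2. The other 7 members had log2 differences from -0.18 (SMOX) to 0.33 (PAOX), with an adjusted p of 1 in each case.

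To ask how the lines differ in level, KO was compared with control in each culture condition. The 3 comparisons use samples separate from each other. Those in EtOH and in DHT, however, draw on the same samples as the DHT responses above and are not independent of them. In DHT, 3 members fell (ODC1, SMS and SAT1) and 1 rose (PAOX), beside 3.32% and 4.66% of all genes tested. The KO DHT samples of ODC1, 153830.3 and 150490 normalized counts, were both below the control DHT samples, 266546 and 321554, with a log2 change of -0.95 (standard error 0.14, adjusted p = 1.37e-09). SMS, with 9818 and 9153 against 18311 and 23201, fell by 1.13 on the log2 scale (standard error 0.14, adjusted p = 7.51e-13), the largest difference between the lines among the 10. SAT1, with 3749 and 3569 against 5161 and 6976, fell by 0.73 (standard error 0.16, adjusted p = 0.000123). Without replicate 2 of control DHT the SAT1 value was -0.50, under the fold change minimum, whereas ODC1 and SMS passed in all 21 alternatives tried.

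PAOX, the acetylpolyamine oxidase, had 167 and 206 normalized counts in KO DHT and 118 and 117 in control DHT, which do not overlap. Its rise of 0.66 on the log2 scale (standard error 0.24, adjusted p = 0.0341) rested on 116 to 207 reads per sample and passed in 9 of 21 alternatives. It was lost when any 1 of 10 libraries was left out, that is any but those of control EtOH, with adjusted p from 0.0561 to 0.333, and over all 21 alternatives the value lay between 0.51 and 0.81. The fitted values of PAOX in the other conditions were 0.33 in EtOH and 0.50 in FM (adjusted p = 0.486 and 0.16).

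Under DHT the other 6 members did not pass. SRM (-0.42, adjusted p = 0.00993) and AZIN1 (0.36, adjusted p = 0.00248) met the p threshold without reaching the fold change minimum. For SRM the KO DHT samples, at 4372 and 5288, lay below the control DHT samples, at 6559 and 6373, and for AZIN1 they lay above, at 5659 and 5054 against 4152 and 4172. SMOX (-0.38, adjusted p = 0.0806), OAZ1 (-0.34, 0.176), AMD1 (0.12, 0.453) and OAZ2 (-0.06, 0.81) had adjusted p above 0.05. The median of the 10 members was -0.36, beside -0.02 over all genes tested.

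In EtOH, 0 members were higher and 0 lower in KO than in control past both limits, beside 2.80% and 2.31% of all genes tested, with a median of -0.04 against -0.01. At an unadjusted p under 0.05 there were 5 (ODC1, SMS, SRM and OAZ1 lower, AZIN1 higher), and edgeR gave 0 calls past both limits. ODC1 (-0.40, adjusted p = 0.0479) and SMS (-0.47, adjusted p = 0.0193) met the p threshold alone. Their KO EtOH samples were below both control EtOH samples, at 23132 and 21602 against 25033 and 34003 for ODC1 and 2794 and 2601 against 3247 and 4206 for SMS. Without replicate 1 of control EtOH, the lower of that pair for these genes, ODC1 (-0.61), SMS (-0.64) and OAZ1 (-0.64) passed as lower in KO. SAT1, at 1223 and 1092 in KO EtOH and 843 and 1128 in control EtOH, overlapped between the lines and had a log2 difference of 0.23 (95% interval -0.09 to 0.56).

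In FM, 0 members were higher and 0 lower in KO, beside 5.41% and 2.60% of all genes tested, with a median of 0.17 against -0.01. ODC1 was 70885 and 74844 normalized counts in control FM and 55034 and 59059 in KO FM, without overlap, and its log2 difference was -0.35 (95% interval -0.63 to -0.08, adjusted p = 0.0614). SMS had -0.20 (adjusted p = 0.338) and SAT1 0.16 (adjusted p = 0.536). The highest fitted values were those of PAOX, 0.50, and OAZ2, 0.25 (adjusted p = 0.109). At an unadjusted p under 0.05, ODC1 and OAZ2 were the 2 members reached, and edgeR also gave 0 calls. That ODC1 and SMS passed in DHT and not in FM or EtOH is not itself a test of a difference between conditions.

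**Figure D5:**
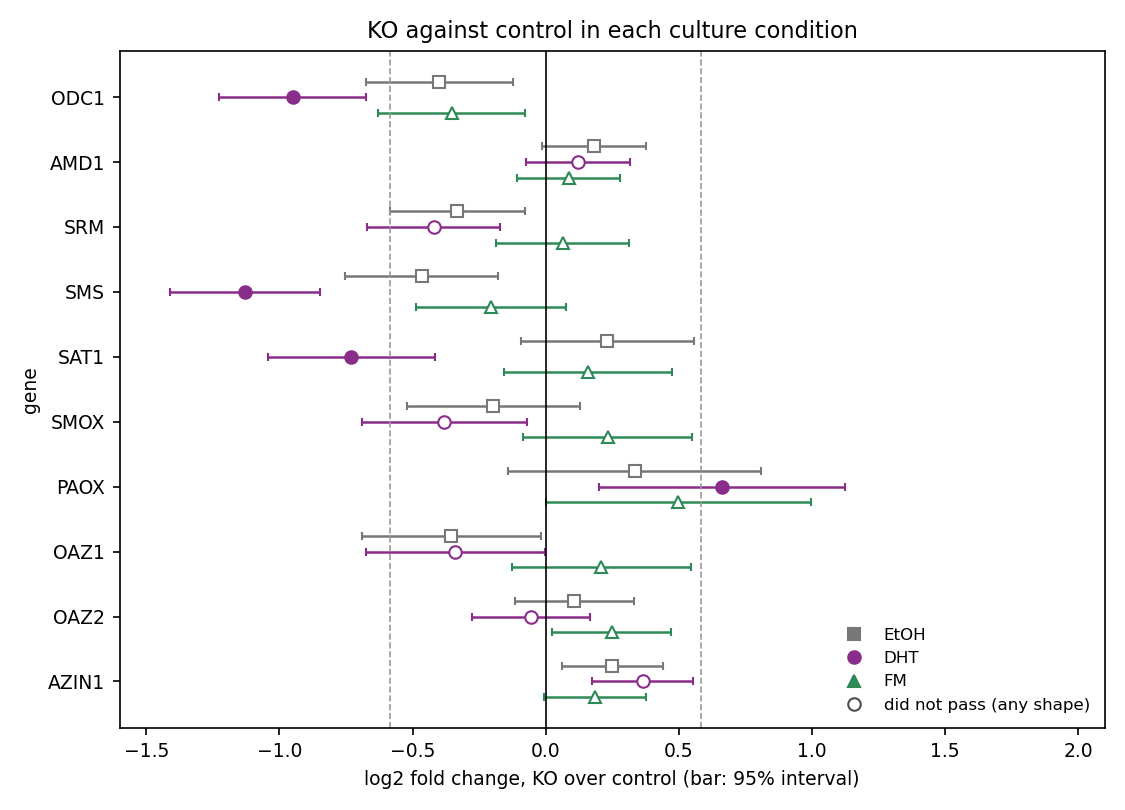
Log2 fold change of Bag-1L KO over control for the 10 genes in EtOH (squares), DHT (circles) and FM (triangles), with bars for the 95% interval of the fit, filled symbols for those that passed, and dashed lines at the 1.5-fold minimum. The 4 filled symbols are all from DHT: ODC1 (-0.95), SMS (-1.13) and SAT1 (-0.73) to the left and PAOX (0.66) to the right.

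Full medium was then compared with the starved EtOH state, which shares its EtOH samples with the DHT comparison. In control cells 3 members were higher in FM, again ODC1, SMS and SAT1, and 0 lower, beside 9.81% and 11.5% of all genes tested. The median of the 10 was 0.18, against -0.01 over all genes. From the EtOH values given above, ODC1 was higher by 1.30 on the log2 scale (standard error 0.14, adjusted p = 1.39e-18). SMS, with 12726 and 14027 normalized counts in control FM, was higher by 1.84 (standard error 0.15, adjusted p = 7.6e-35), and SAT1, with 2939 and 3165, by 1.63 (standard error 0.16, adjusted p = 1.05e-21). FM samples of these 3 genes were all above the EtOH samples. SRM, at 6575 and 5879 in control FM, had 0.56 (adjusted p = 7.74e-05) and was just under the fold change minimum, and it passed without replicate 2 of control EtOH (0.72) or without replicate 2 of control FM (0.65).

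In KO cells 5 members were higher in FM than in EtOH and 0 lower, beside 9.61% and 9.68% of all genes tested, with a median of 0.53 against -0.01. These were ODC1 (1.35, standard error 0.14), SMS (2.105, standard error 0.15), SAT1 (1.56, standard error 0.16), SRM and SMOX. SRM had 6410 and 6605 normalized counts in KO FM and 3269 and 3422 in KO EtOH, a rise of 0.96 on the log2 scale (standard error 0.13, adjusted p = 1.89e-12). SMOX, with 470.1 and 475 in KO FM against 313 and 302, had 0.62 (standard error 0.16, adjusted p = 0.000948). OAZ1 was 16750 and 17429 in KO FM and 13029 and 12309 in KO EtOH, which do not overlap, and its 0.43 (adjusted p = 0.0402) was under the fold change minimum. This count of 5 was the same in each of the 12 fits that left out a sample.

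The difference between the lines in this response passed for 0 members in either direction, beside 0.748% of all genes with a larger and 0.640% with a smaller value in KO. The log2 differences ran from -0.10 (AMD1) to 0.56 (OAZ1, unadjusted p = 0.0208, adjusted p = 0.239), with a median of 0.15 against 0.01. At an unadjusted p under 0.05, OAZ1 and SRM (0.40, unadjusted p = 0.0295) were the 2 members reached, and edgeR gave 0 calls. Without replicate 1 of control EtOH, OAZ1 (0.85, adjusted p = 1.03e-05) and SMOX (0.63, adjusted p = 0.022) passed. OAZ1 in that group was 12609 in replicate 1 and 19781 in replicate 2, the widest gap between its replicates in any group. For ODC1 the difference was 0.05 (95% interval -0.34 to 0.44), for SMS 0.26 (-0.14 to 0.66) and for SAT1 -0.07 (-0.53 to 0.38).

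Set in order over the 6 groups, the 3 strongest responders had different patterns, given here without a test. ODC1 ran from control DHT (294050 ± 38896 normalized counts, SD, n = 2) through KO DHT (152160.1 ± 2362), control FM (72865 ± 2800) and KO FM (57047 ± 2846) to control EtOH (29518 ± 6343) and KO EtOH (22367 ± 1082). Its samples did not overlap between neighbours, and in both lines DHT exceeded FM. SMS ran from control DHT (20756 ± 3458) through control FM (13377 ± 920), KO FM (11606 ± 773) and KO DHT (9485 ± 471) to control EtOH (3726 ± 678) and KO EtOH (2698 ± 137). SMS was therefore above its FM level with DHT in control but below it in KO, with no overlap in either line. SAT1 ran from control DHT (6069 ± 1284) through KO DHT (3659 ± 128), KO FM (3405 ± 301) and control FM (3052 ± 160) to KO EtOH (1157 ± 92.9) and control EtOH (986 ± 201). Here KO DHT and KO FM overlapped, as did the EtOH groups.

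Around these 10 genes, 30 further genes of the wider pathway were counted in every comparison, covering the supply of arginine and ornithine, the methionine side, further regulators and oxidases, transport, and hypusine synthesis, the use of spermidine to modify EIF5A. With DHT in control, 2 of the 27 that were tested rose and 1 fell, numbers near the 6.04% and 5.37% of all genes. These were ASL, argininosuccinate lyase (0.69, adjusted p = 0.000173), APIP, an enzyme of methionine salvage (0.70, adjusted p = 0.000923), and SLC18B1, a vesicular polyamine transporter (-0.83, adjusted p = 8.71e-06). With DHT in KO 1 of 27 rose and 2 fell, beside 4.43% and 3.24% of all genes. There APIP rose (0.67, adjusted p = 0.0027), SLC18B1 fell (-0.68, adjusted p = 0.00113) and ARG1, arginase 1, fell (-0.72, adjusted p = 0.0409). The medians of the 30 were 0.00 in control and 0.02 in KO, close to the -0.02 and -0.01 over all genes. In the difference between these responses 0 of the 24 tested passed by DESeq2 or edgeR, and 0 had an unadjusted p under 0.05. ARG1, AZIN2 and OAT had mean normalized counts under 100, outside the rule for naming genes of this list, and are named after their values were seen.

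Between the lines, 0 of 25 tested passed in EtOH, beside 2.80% of all genes higher and 2.31% lower in KO, where 9 had an unadjusted p under 0.05 and edgeR called 1, ARG1, higher in KO. In DHT 0 of 24 were higher and 1 was lower, beside 4.66% and 3.32% of all genes. It was SLC3A2, the heavy chain of several amino acid transporters. It had 3915 and 4424 normalized counts in KO DHT and 6511 and 6890 in control DHT, so that SLC3A2 fell by 0.68 on the log2 scale (standard error 0.12, adjusted p = 8.6e-07). In full medium 1 of 24 was higher and 3 were lower, beside 5.41% and 2.60% of all genes. SLC18B1 (-0.64, adjusted p = 0.00302), ATP13A3, a transporter that carries polyamines into cells (-0.60, adjusted p = 0.00162), and ARG1 (-0.97, adjusted p = 0.0488) were lower in KO, and AZIN2 (1.10, adjusted p = 0.00156), a further antizyme inhibitor, was higher.

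In FM against EtOH, 3 of 28 tested were higher and 3 lower in control, and 4 higher and 3 lower in KO. These counts lie near the shares of all genes, 9.81% and 11.5% in control and 9.61% and 9.68% in KO, and the genes are named as a description of the list. ASS1, argininosuccinate synthase, was 1121 and 1088 normalized counts in control FM and 3053 and 3296.5 in control EtOH. It was lower in FM by -1.52 on the log2 scale in control (adjusted p = 3.43e-44) and by -1.71 in KO (adjusted p = 3.55e-56). ATP13A3 was higher in FM in control (1.12, adjusted p = 7.78e-12), and MTAP, which recycles the by-product of polyamine synthesis, was higher in both lines (0.70 and 0.61), as was APIP (0.61 and 0.74). DOHH, which completes hypusine, was higher in KO (0.82, adjusted p = 0.00254), as was OAT (0.85), an enzyme that uses ornithine. ARG1 (-1.31 and -2.94) and AZIN2 (-1.44 and -0.75) were lower in FM in both lines, and ARG1 was the 1 gene of 24 tested to pass the difference between the lines in this response (-1.64, adjusted p = 0.0281).

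The genes most like ODC1 and SAT1 in pattern were found by the root mean square difference in centred log2 normalized counts over the 12 samples, among 11103 genes. For ODC1 they were FZD8 (0.43), ERRFI1 (0.44), NR4A1 (0.47), SOCS2 (0.51) and SPDEF (0.52), against a root mean square of 1.29 for ODC1 around its own mean. For SAT1 they were ERRFI1 (0.23), TRIM36 (0.23), SORD2P (0.23), FOXD4 (0.29) and TBC1D4 (0.30), against 0.95 for SAT1 itself. The likeness describes these samples, which share libraries across genes, and no test was made of it.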

How the data were processed

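Poly(A) RNA of the 12 samples was sequenced from stranded TruSeq libraries. The deposited values were raw read counts per Ensembl gene, made by the authors by mapping to GRCh37. The submitters' processing notes list CASAVA 1.7, TopHat2 2.0.11 and HTSeq 0.5.3p3. The strand setting and annotation release were not given in the sources used here. HTSeq sets aside reads with several alignments or several genes. The 5 tallies not given to a gene were left out. The tallies for ambiguous reads, reads in no gene and alignments that were not unique made up 26.9% to 31.5% of their sum with the gene counts. Symbols and positions came from GENCODE 44 mapped to GRCh37, which held 55665 of 63677 identifiers, and promoter windows from RefSeq on GRCh38.p14, with no coordinates converted between builds.

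Genes with at least 10 counts summed over samples were fitted with DESeq2 1.42.0 (R 4.3.3), the tool of the study's methods, over all 12 samples with a coefficient per group, median-of-ratios size factors, Wald tests and Benjamini-Hochberg adjustment over all genes tested. Normalized counts are counts divided by the size factor. The fit was also run on simulated counts, drawn with a spread per gene that was common to all groups. That run could not check the fit where groups differ in spread. Chi-square per degree of freedom between replicates was 3.19 to 36.46, so none was taken for a repeat of another. Alternatives were edgeR 4.0.16 with TMM, TMM size factors, other filters, only the groups compared, replicate blocks, no fold change minimum, and each sample left out. Members and lists were chosen with earlier results of these data known. From the 30 wider genes, at most 4 per comparison were named, by size of change, among those averaging 100 or more normalized counts, with the exceptions stated. Some markers on the list are not reported here.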

Additional observations from a re-analysis of the deposited data

Results flagged for a closer look

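The response of SAT1 to DHT differed between the lines in the test of that difference, with a log2 value in KO minus control of -0.96. SAT1 had 843 and 1128 normalized counts in control EtOH and 5161 and 6976 in control DHT. In KO it had 1223 and 1092 in EtOH and 3749 and 3569 in DHT. In each line both DHT samples lay above both EtOH samples, and the difference was smaller in KO. The call was not firm: it held in 14 of 21 alternatives and was lost in 7, of which 5 left out a single library, while the value stayed between -1.19 and -0.73.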

How the results depend on the processing

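Over 21 alternatives and 9 comparisons, 1890 values of the 10 genes were recomputed. Of these, 1803 kept direction and side of the threshold, 24 lost the threshold, 25 gained it, 0 reversed, and 38 changed sign without passing in either fit. The number of members that passed in the difference in DHT response, 1, became 0 with edgeR, 0 with only the groups compared, 2 with a replicate block within each line (SAT1 and SMS) and 3 with both starved control groups reduced to replicate 1, an alternative chosen after seeing the data. It ranged from 0 to 3 when single samples were left out. For KO against control in DHT the 4 members became 2 with that reduction and 2 with the block within each line, where SAT1 was -0.55 and PAOX 0.78, and ranged from 2 to 4 with single samples left out, 2 without replicate 2 of control DHT. For KO against control in EtOH, 0 became 2 with no fold change minimum and ranged from 0 to 3. In the difference in FM response, 0 became at most 2 (range 0 to 2). In the last 2 the highest count came without replicate 1 of control EtOH. The cause was not tested. The other 5 comparisons kept their counts within 1.5 times.

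Correlations of same-numbered deviations did not show a pairing common to all groups. They ran from -0.415 (control DHT with KO EtOH) to 0.692 (control EtOH with control DHT) over 15 pairs of groups, and 6 exceeded 0.1. The value of 0.692 comes from the 2 groups whose replicates agreed least, and whether their samples were paired was not tested. A block within each line changed some member counts, as given above. A replicate block common to all groups gave the same member counts as without it: 5 and 4 for DHT in control and KO, 1 for their difference, 0, 4 and 0 for KO against control in EtOH, DHT and FM, 3 and 5 for FM against EtOH, and 0 for that difference. At these depths, 3 counts correspond to 2.42 to 3.39 normalized counts, far below every member.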
